A study of Mus musculus with 41 samples.

Results

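The comparison was between 3 liver libraries of IgAkMup mice with steatohepatitis (NASH) on a high-fat diet (HFD) and 3 liver libraries of healthy IgAkMup mice of the NC group, described over all genes. The 6 libraries were chosen by genotype and group from the labels, out of 41 columns of log2 values, of which 35 could be matched to a group. All mice were male C57BL/6; neither the labels nor the files give their age, how long they were fed, or what NC stands for. The groups set beside the comparison were B6 HFD control (fatty livers called healthy, HFD, n = 3) with B6 NC (healthy livers, n = 3), and MupHe NASH (HFD, n = 3) with MupHe NC (healthy livers, n = 3). The labels do not spell out the genotype names. As background, the published model behind such names carries the MUP-uPA transgene, which makes hepatocytes produce urokinase from a major urinary protein promoter, and IgAk is a deletion of the IgA heavy chain. Both IgAkMup groups carry the same genotype name, so the comparison itself does not isolate it.

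NASH is a fatty liver with hepatocyte damage, inflammation and early scarring. In a fatty liver, fatty acids bind the nuclear receptor PPAR alpha, which switches on genes that burn and store lipid, while stress, interferon and scar genes mark injury and the response of immune cells and stellate cells. Mouse liver also has strongly sex-biased genes, kept at male or female levels by the pattern of growth hormone release, and the major urinary proteins are among its most abundant male-biased products.

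Values are the authors' regularized log2 values, so a difference of 1 is a doubling. Each difference is given ± its standard error (SE) from limma, with n = 3 libraries a group. This scale pulls low genes towards their mean and understates their change. No counts were used, so the depth per library is unknown. Libraries carry the number that ends their column name: 2, 3 and 6 for IgAkMup NASH and 1, 2 and 4 for IgAkMup NC, and values below follow that order. Column names also carry tags that no label explains. SS N stands in the names of IgAkMup NASH and B6 HFD control, and Tri N in those of MupHe NASH and IgAkCLM HFD control. Tri NC stands in the names of every NC library. Diet, stage and tag therefore changed together between the IgAkMup groups and cannot be told apart. B6 HFD control against B6 NC has the same pair of tags; MupHe NASH against MupHe NC has the same stage but another tag. The first principal component of the 24 non-tumour libraries held 37.9% of the variance. It placed IgAkMup NASH at 19.4 to 25.6 and IgAkMup NC at -17.0 to -11.0, with B6 HFD control at 23.3 to 34.7 and MupHe NASH at 10.9 to 12.7. Correlations of libraries across genes within a group were 0.992 to 0.9945 in IgAkMup NASH and 0.993 to 0.9938 in IgAkMup NC, and no 2 libraries of a group were identical.

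The targeted gene of the IgAk name, Igha, has no row in the table and is not analysed here. Plau, which encodes urokinase, stood at 4.72, 5.68 and 5.66 in IgAkMup NASH and 4.56, 5.27 and 4.83 in IgAkMup NC. The groups overlapped, and the difference was not detectable (exact two-sided permutation p = 0.3, where 3 against 3 libraries cannot go below 0.1); in limma its adjusted p was 0.157, and 0.0199 without IgAkMup NASH 2, the lowest of its group.

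Of 12254 genes tested, 1801 were higher (14.7%) and 1824 lower (14.9%) in IgAkMup NASH than in IgAkMup NC livers at a limma adjusted p under 0.05. Most called differences were moderate: 73 of the higher genes and 147 of the lower ones differed at least 2-fold. Without IgAkMup NASH 2, 1199 genes were higher and 1309 lower, and with the tumour groups added to the fit 682 and 912. The same comparison called 2413 genes higher (19.7%) and 2385 lower (19.5%) in B6 HFD control than in B6 NC livers, and 665 higher (5.43%) and 724 lower (5.91%) in MupHe NASH than in MupHe NC livers. Smaller MupHe counts were found without MupHe NASH 2 (409 and 415), MupHe NC 2 (424 and 457) or MupHe NC 3 (431 and 452), and for the higher genes without MupHe NASH 1 (416).

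These sets of calls share no library. Of the 1801 genes higher in IgAkMup NASH, 1281 (71.1%, and 53.1% of the B6 calls) were also called higher in B6 HFD control livers, and 422 (23.4%, and 63.5% of the MupHe calls) in MupHe NASH livers. Of the 1824 lower genes, 1348 (73.9%, and 56.5% of the B6 calls) were called lower in B6 HFD control and 307 (16.8%, and 42.4% of the MupHe calls) in MupHe NASH livers. Few IgAkMup calls went the other way: 4 higher and 3 lower genes in B6, and 3 higher and 6 lower genes in MupHe. Genes called in IgAkMup alone numbered 474 higher and 439 lower, which does not show that they differ from the other genotypes. Across the 12254 genes, which are not independent replicates, IgAkMup differences had r = 0.786 with the B6 differences and r = 0.581 with the MupHe differences.

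**Figure D1:**
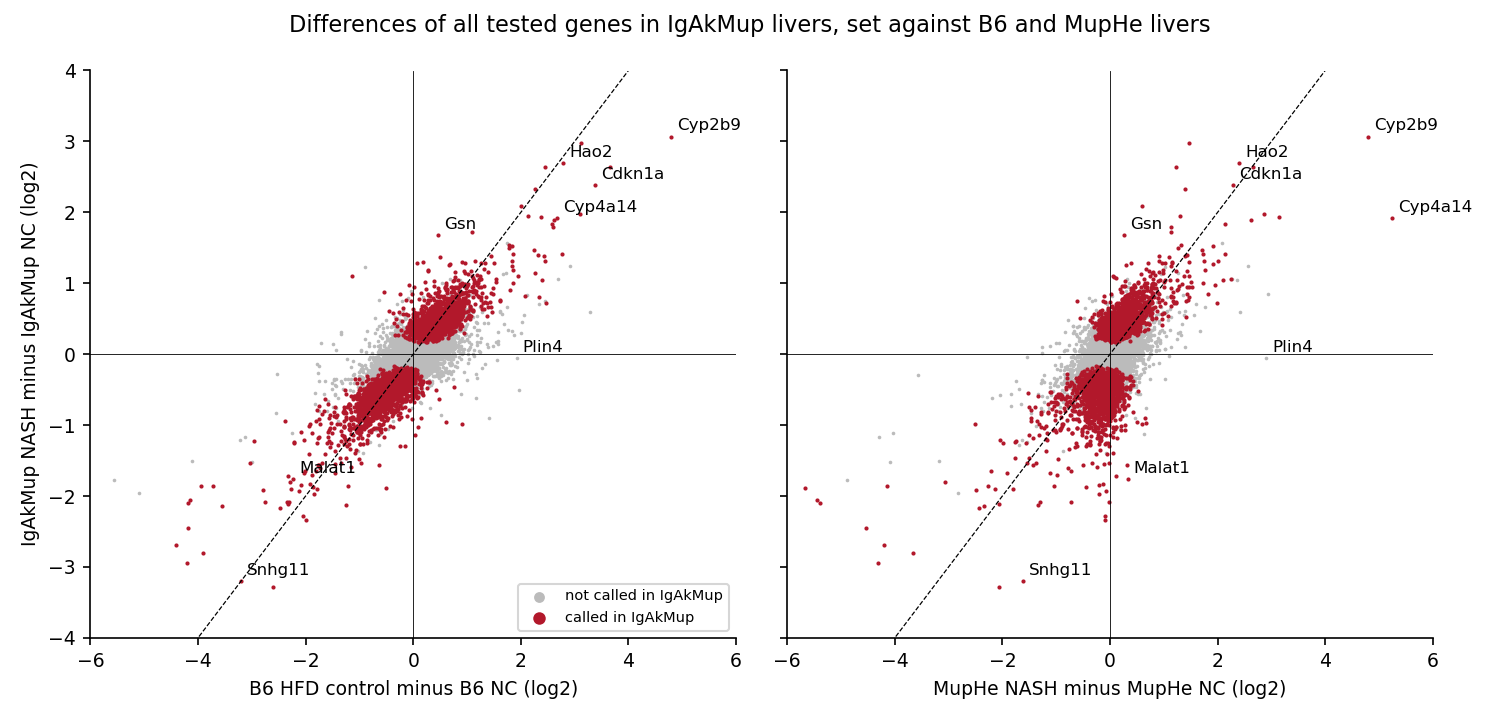
Each point is a gene, with the difference of IgAkMup NASH minus IgAkMup NC on the vertical axis (log2) and that of B6 HFD control minus B6 NC (left) or MupHe NASH minus MupHe NC (right) on the horizontal axis; red points were called in IgAkMup, and the dashed line marks equal differences. Cyp2b9, Hao2 and Cdkn1a were high on all axes, while Malat1 was low in IgAkMup and B6 and stood at 0.33 in MupHe.

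The 12 largest rises, like the 12 largest falls below, were taken from called genes whose groups do not overlap. Among the rises are Cyp2b9, Hao2, Cdkn1a and Apoa4, described here, and Lars2, Rn45s and Mir6236, given below with the long RNAs. Cyp2b9, a cytochrome P450 that is female-biased in mouse liver, stood at 10.50, 10.39 and 10.55 in IgAkMup NASH and 6.72, 8.24 and 7.28 in IgAkMup NC, a rise of 3.07 ± 0.52 (adjusted p = 0.000189). The NASH libraries lay close together and all above the NC libraries, which were more spread. Cyp2b13, its near-identical neighbour in sequence, rose by 1.98 ± 0.53 (adjusted p = 0.00802); reads of these copies are hard to assign, so the split between them is uncertain. Hao2, a peroxisomal hydroxyacid oxidase that is also female-biased, rose by 2.70 ± 0.27 (adjusted p = 8.39e-07), with 6.74, 6.65 and 6.06 in IgAkMup NASH and 3.73, 4.05 and 3.58 in IgAkMup NC. Cdkn1a, the p53-induced inhibitor of the cell cycle known as p21, stood at 7.91, 8.37 and 8.54 in IgAkMup NASH and 5.81, 5.86 and 5.98 in IgAkMup NC and rose by 2.39 ± 0.41 (adjusted p = 0.00022). The NC libraries lay close together, and the lowest NASH library was far above them. Cyp2b9 (0.0517) and Cyp2b13 (0.0821) missed the threshold with the tumour groups added to the fit.

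Apoa4, an apolipoprotein whose liver level follows triglyceride load, rose by 2.34 ± 0.55 (adjusted p = 0.00321), with 14.06, 15.15 and 14.34 in IgAkMup NASH and 12.01, 12.73 and 11.80 in IgAkMup NC. Mfsd2a, a lysophospholipid carrier, rose by 1.94 ± 0.50 (adjusted p = 0.00591), but its adjusted p was 0.0523 without IgAkMup NC 1, the lowest NC library. Rad51b, a gene of DNA strand repair, rose by 2.64 ± 0.27 (adjusted p = 1.03e-06). Hamp2, a copy of the iron hormone gene hepcidin, rose by 1.95 ± 0.49 (adjusted p = 0.00527). Hamp itself stood at 11.89, 10.94 and 11.32 in IgAkMup NASH and 9.82, 10.61 and 11.35 in IgAkMup NC, groups that overlap, and it did not pass (adjusted p = 0.3). Of these genes, Cyp2b9, Cyp2b13, Hao2, Cdkn1a, Mfsd2a and Rad51b were also called higher in B6 HFD control and in MupHe NASH livers; Apoa4 and Hamp2 were called in B6 and had differences of 1.40 ± 0.55 and 1.31 ± 0.49 in MupHe that did not pass. Apoa4 (0.12) and Hamp2 (0.0604) missed the threshold with the tumour groups added to the fit.

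Among the largest falls were major urinary protein genes. Mup1 stood at 5.54, 5.33 and 5.39 in IgAkMup NASH and 8.57, 7.53 and 8.21 in IgAkMup NC, a fall with a difference of -2.69 ± 0.46 (adjusted p = 0.000229), and no NASH library reached the lowest NC library. Mup12 differed by -2.95 ± 0.45 (adjusted p = 6.72e-05) and Mup14 by -2.45 ± 0.54 (adjusted p = 0.00207). Mup2 differed by -2.11 ± 0.69 (adjusted p = 0.0255), and it missed the threshold without IgAkMup NASH 2 (0.0557), IgAkMup NASH 6 (0.113) or IgAkMup NC 1 (0.144). The Mup genes are near-identical copies, so the values of single members are uncertain. Selenbp2, a male-biased selenium-binding protein gene with a near-identical copy, stood at 7.57, 8.89 and 8.54 in IgAkMup NASH and 11.17, 10.56 and 11.69 in IgAkMup NC and differed by -2.81 ± 0.44 (adjusted p = 7.99e-05). Cyp26a1, which breaks down retinoic acid, differed by -2.14 ± 0.45 (adjusted p = 0.00124), and Cyp2c55, an epoxide-forming P450, by -2.12 ± 0.27 (adjusted p = 1.12e-05). C4a, a near-identical copy of the complement C4 gene, differed by -2.09 ± 0.26 (adjusted p = 7.78e-06). The Mup genes, Selenbp2, Cyp26a1 and Cyp2c55 were called lower in B6 HFD control and MupHe NASH livers as well.

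**Figure D2:**
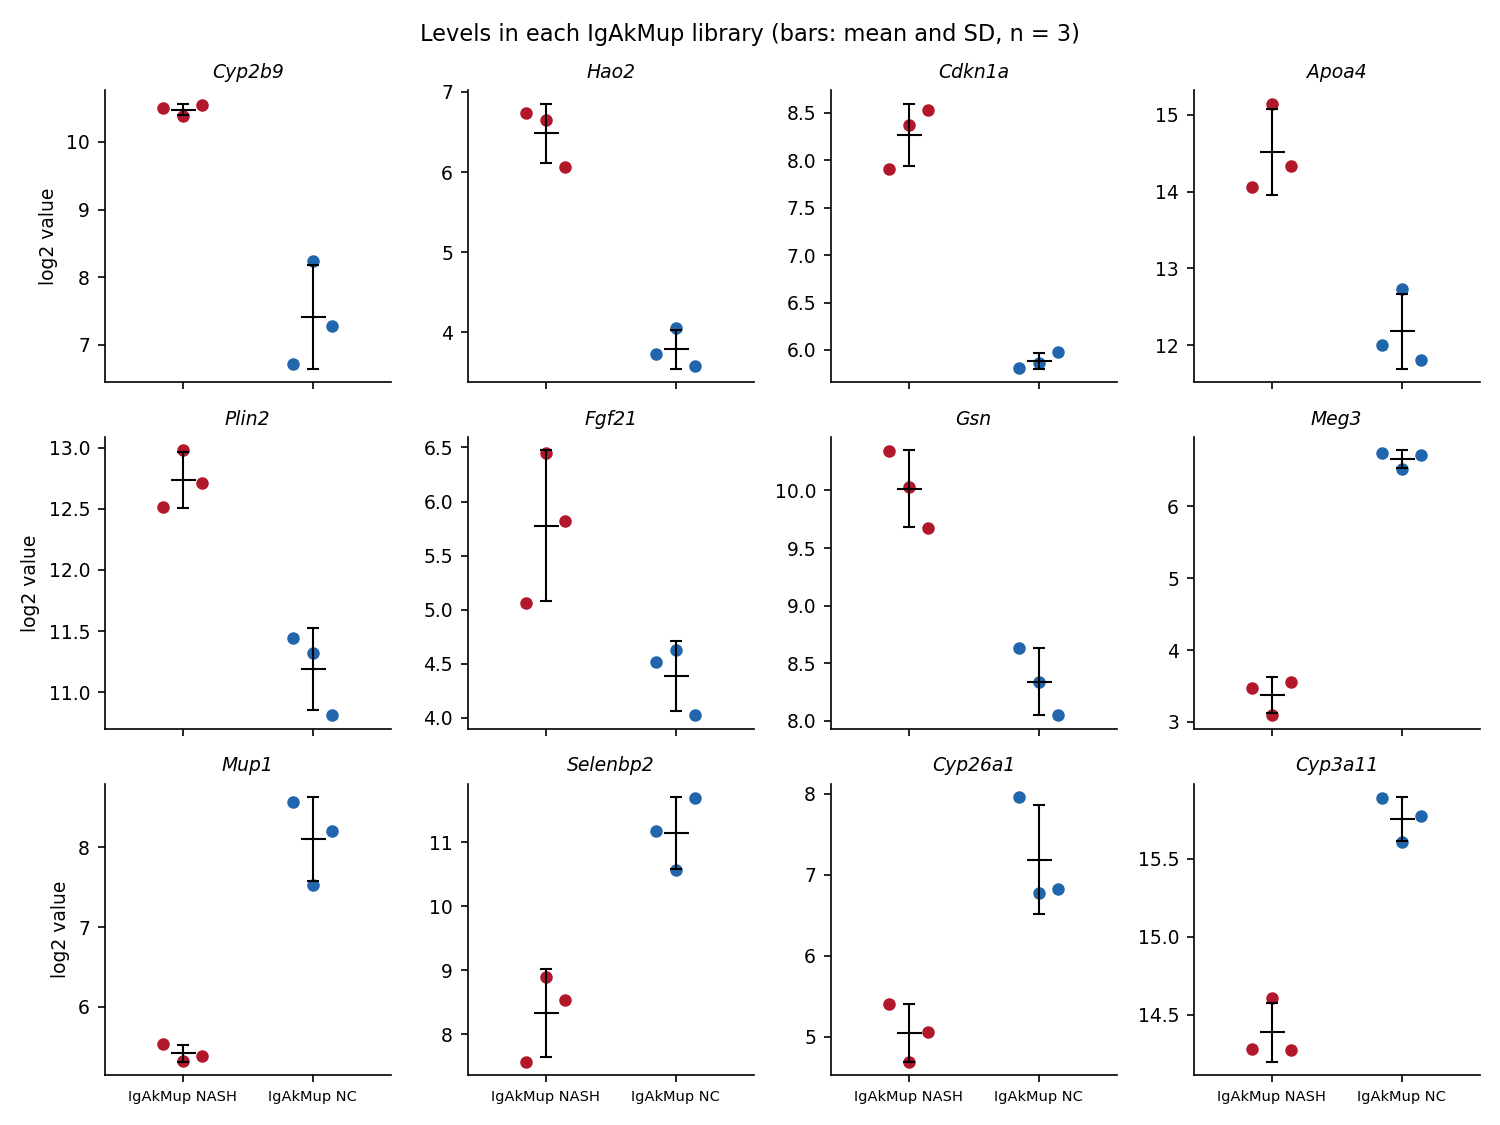
The log2 value of 12 genes is plotted for each IgAkMup NASH library (left, red) and each IgAkMup NC library (right, blue), with the mean and SD of each group of 3; every panel has its own scale. In all 12 genes the groups do not overlap, and the NASH libraries are above the NC libraries in the first 7 panels and below them in the last 5. Non-overlap was a condition for choosing Cyp2b9, Hao2, Cdkn1a, Apoa4, Meg3, Mup1, Selenbp2 and Cyp26a1, so it is no result for them. The share of all tested genes without overlap was not counted.

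Genes of fatty acid oxidation rose together. Of 28 tested genes in the list of fatty acid oxidation and PPAR alpha targets, 23 rose and none fell, with a median difference of 0.68 beside 0.01 over all genes; 20 to 23 rose when any 1 of the 6 libraries was left out, and 13 with the tumour groups added to the fit. In B6, 25 of the 28 were called higher, and in MupHe 24. Vnn1, a pantetheinase and a sensitive PPAR alpha target, stood at 11.03, 11.17 and 10.59 in IgAkMup NASH and 9.71, 9.79 and 9.36 in IgAkMup NC and rose by 1.31 ± 0.28 (adjusted p = 0.00137). Fgf21, a fasting hormone made by the liver, rose by 1.39 ± 0.41 (adjusted p = 0.0148), but it missed the threshold without IgAkMup NASH 3 (0.0971) or IgAkMup NC 4 (0.0652). Cyp4a14, a fatty acid omega-hydroxylase, stood at 13.44, 12.73 and 13.19 in IgAkMup NASH and 10.71, 11.63 and 11.28 in IgAkMup NC and rose by 1.91 ± 0.47 (adjusted p = 0.00461). Its near-identical relative Cyp4a31 rose by 1.27 ± 0.22 (adjusted p = 0.000188). Cpt1a, which admits fatty acids into mitochondria, differed by 0.38 ± 0.19 (adjusted p = 0.147) and did not pass. Cyp4a14 (0.081) and Cyp4a31 (0.0631) missed the threshold with the tumour groups added to the fit.

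Cyp4a14 also had the widest departure downwards from the MupHe difference. In MupHe livers it was higher in NASH by 5.24 ± 0.47, so the IgAkMup difference departed from it by -3.32 ± 0.67 (adjusted p = 0.00964). Cyp4a14 stood at 13.08, 13.00 and 13.90 in MupHe NASH and 7.46, 8.43 and 8.38 in MupHe NC, with all MupHe NC libraries below the lowest IgAkMup NC library and the NASH groups overlapping.

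Of 26 tested genes for lipid droplets and triglyceride handling, 9 rose (34.6%, beside 14.7% of all tested genes) and none fell (median 0.23). In B6, 16 were higher and 1 lower, and in MupHe 12 were higher. Plin2, the coat protein of lipid droplets in fatty hepatocytes, stood at 12.52, 12.98 and 12.71 in IgAkMup NASH and 11.44, 11.32 and 10.81 in IgAkMup NC and rose by 1.54 ± 0.23 (adjusted p = 5.86e-05), with no overlap between the groups. Mogat1, a monoacylglycerol acyltransferase, rose by 1.46 ± 0.26 (adjusted p = 0.000343) and Mgll, a monoacylglycerol lipase, by 0.95 ± 0.14 (adjusted p = 5.23e-05). Cidec, which fuses lipid droplets, stood at 7.55, 9.17 and 8.14 in IgAkMup NASH and 7.28, 7.84 and 6.56 in IgAkMup NC and did not pass, at 1.06 ± 0.66 (adjusted p = 0.238). IgAkMup NASH 3 had the highest value of Cidec and of Mogat1, and IgAkMup NASH 2 the lowest. Mogat1 (0.0851) missed the threshold with the tumour groups added to the fit. Plin4, a droplet coat protein, stood at 5.73, 7.04 and 7.14 in IgAkMup NASH and 6.42, 6.86 and 6.80 in IgAkMup NC. It differed by -0.06 ± 0.41 between the IgAkMup groups, while it was higher by 1.92 ± 0.41 in B6 HFD control and by 2.90 ± 0.41 in MupHe NASH livers, both called. In the direct tests given below, its IgAkMup difference departed from that of MupHe, but not detectably from that of B6.

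Called male-biased genes were mostly lower, and called female-biased genes higher. Of 23 tested male-biased liver genes 10 fell (43.5%) and 3 rose (13%), with a median difference of -0.83. Of all tested genes, 14.9% fell and 14.7% rose. When 1 library was left out 6 to 12 male-biased genes fell, the fewest without IgAkMup NC 1. Without IgAkMup NASH 2, 1 rose. Of 14 tested female-biased genes (the other 11 of 25 had a mean under 3, the filter on low values) 7 rose and none fell (median 0.90). With the tumour groups added to the fit, 4 male-biased genes fell and none rose, and 2 female-biased genes rose. Ugt2b1, a glucuronosyltransferase, stood at 11.31, 11.28 and 11.28 in IgAkMup NASH and 12.83, 12.47 and 12.96 in IgAkMup NC and fell, with a difference of -1.47 ± 0.12 (adjusted p = 1.57e-07). C8b, a subunit of the complement attack complex, differed by -1.26 ± 0.26 (adjusted p = 0.00114), and Cyp4a12b, a male-specific omega-hydroxylase, by -1.53 ± 0.29 (adjusted p = 0.000629; 0.0946 with the tumour groups added). Hsd3b5, a male-specific steroid dehydrogenase, stood at 8.32, 7.52 and 7.12 in IgAkMup NASH and 10.53, 8.43 and 9.86 in IgAkMup NC, with a spread that left it short of the threshold (adjusted p = 0.0695; 0.0378 without IgAkMup NC 2). Slc22a27, a female-biased organic anion carrier with a near-identical copy, rose by 1.83 ± 0.27 (adjusted p = 5.29e-05). In B6, 17 male-biased genes were called lower and in MupHe 16; the medians there were -1.44 and -1.38. All mice were labelled male.

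P450 genes of drug metabolism moved both ways. Of 22 tested genes 3 rose (13.6%) and 8 fell (36.4%), with a median of -0.31. Of all tested genes, 14.7% rose and 14.9% fell. Cyp2b9 and Cyp2b13 above are among the 3 that rose. Without IgAkMup NC 2, 5 fell, and with the tumour groups in the fit 1 fell and none rose. Cyp3a11, a main drug-metabolizing P450 of mouse liver, stood at 14.28, 14.61 and 14.28 in IgAkMup NASH and 15.89, 15.61 and 15.77 in IgAkMup NC and fell, with a difference of -1.37 ± 0.20 (adjusted p = 4.13e-05; 0.193 with the tumour groups added). Cyp2b10, the classical target of the receptor CAR, differed by -1.48 ± 0.43 (adjusted p = 0.0122; 0.0571 without IgAkMup NC 2), opposite in sign to Cyp2b9 and Cyp2b13.

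In the bile acid list of 24 genes 3 rose (12.5%) and 5 fell (20.8%), beside 14.7% and 14.9% of all tested genes. Leaving out IgAkMup NASH 2 or IgAkMup NC 2 left 1 rise. Without IgAkMup NASH 2, 3 fell, and without IgAkMup NC 4, 2 fell. None rose and 2 fell with the tumour groups added to the fit, and 6 rose with weights per library. Cyp7a1, the rate-limiting enzyme of bile acid synthesis, stood at 8.90, 9.74 and 9.54 in IgAkMup NASH and 9.99, 11.33 and 12.00 in IgAkMup NC and fell, with a difference of -1.71 ± 0.56 (adjusted p = 0.0241). The call was lost without IgAkMup NASH 2 (0.104), IgAkMup NC 2 (0.072) or IgAkMup NC 4 (0.131), or with the tumour groups added (0.158). Nr0b2, which encodes SHP, a repressor of Cyp7a1 transcription, rose by 0.74 ± 0.26 (adjusted p = 0.0372). That call was lost without IgAkMup NASH 2 (0.157), IgAkMup NASH 3 (0.0719), IgAkMup NC 2 (0.0772) or IgAkMup NC 4 (0.134), or with the tumour groups added (0.295). Cyp2c70, which makes muricholic acids, differed by -0.79 ± 0.17 (adjusted p = 0.00146), and its groups did not overlap.

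The called genes of cholesterol synthesis were all lower, and their number rests on few libraries. They were 33.3% of the list, beside 14.9% of all tested genes that were called lower. Of 24 genes 8 fell and none rose (median -0.64), against 16 lower in B6 and 14 in MupHe; 2 to 9 fell when 1 library was left out, with 2 without IgAkMup NC 4, 3 without IgAkMup NASH 3 or IgAkMup NC 2, and 4 without IgAkMup NASH 2; 1 fell with the tumour groups added to the fit 17 with only the groups compared, 16 with weights per library and 5 with no filter. Idi1, an isomerase of the isoprenoid steps, stood at 5.60, 6.33 and 6.89 in IgAkMup NASH and 6.87, 7.36 and 7.53 in IgAkMup NC and differed by -0.98 ± 0.29 (adjusted p = 0.0155). It missed the threshold without IgAkMup NASH 2 (0.127), IgAkMup NC 2 (0.0508) or IgAkMup NC 4 (0.0695), or with the tumour groups added (0.101). Sqle, the squalene epoxidase, differed by -0.83 ± 0.53 and did not pass (adjusted p = 0.249), while it differed by a called -2.55 ± 0.53 in B6 HFD control. The direct test of the IgAkMup difference against the B6 difference, given below, called no gene, Sqle included.

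Mlxipl, which encodes the sugar-sensing factor ChREBP, fell. It stood at 9.26, 9.28 and 9.26 in IgAkMup NASH and 11.31, 10.82 and 10.62 in IgAkMup NC, with a difference of -1.64 ± 0.16 (adjusted p = 7.73e-07). Of the 17 fatty acid synthesis genes 2 fell (11.8%), Mlxipl among them, and 1 rose (5.88%). These shares are below the 14.9% and 14.7% of all tested genes. The number of falls was 1 without IgAkMup NASH 2, IgAkMup NASH 3 or IgAkMup NC 2. It was also 1 with the tumour groups added, and 5 with only the groups compared. In the list of glucose handling 6 of 22 genes rose (27.3%) and 2 fell (9.09%), beside 14.7% and 14.9% of all tested genes. There were 3 rises without IgAkMup NASH 3 or IgAkMup NC 1. There was 1 fall without IgAkMup NASH 2, IgAkMup NASH 3 or IgAkMup NC 2. None rose and 1 fell with the tumour groups added, and 3 rose after quantile normalization. Fbp1, fructose bisphosphatase, rose by 0.84 ± 0.12 (adjusted p = 3.85e-05; 0.0656 with the tumour groups added). Irs2, an adaptor of the insulin receptor, stood at 5.30, 5.09 and 5.26 in IgAkMup NASH and 6.34, 6.42 and 6.06 in IgAkMup NC and fell, with a difference of -1.06 ± 0.24 (adjusted p = 0.00277). Egfr, the epidermal growth factor receptor, differed by -1.68 ± 0.43 (adjusted p = 0.00569), with 9.63, 10.08 and 10.38 in IgAkMup NASH and 12.05, 11.31 and 11.77 in IgAkMup NC.

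Interferon-induced genes rose in IgAkMup NASH. Type I interferons induce them through transcription factors that bind a short DNA element made of GAAA repeats. Of 27 tested genes of the type I list 14 rose and none fell, with a median difference of 0.63. Without 1 library 10 to 14 rose, the fewest without IgAkMup NASH 3. To show that element beside the values, the stretch around each match is given for the 6 of the 14 genes whose RefSeq promoter window (GRCm38.p6, 250 bases before to 50 after the gene's start) holds it. Bst2, Ifit3 and Rsad2 were chosen for this match after their values were seen. The capitals mark every match to GAAANNGAAA on either strand, read 5′ to 3′ along the gene's strand, and overlapping matches run together:
Bst2 (chr8:71537557-71537632, minus strand): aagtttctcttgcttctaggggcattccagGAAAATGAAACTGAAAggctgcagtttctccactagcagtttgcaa
Ifit1 (chr19:34640755-34640843, plus strand): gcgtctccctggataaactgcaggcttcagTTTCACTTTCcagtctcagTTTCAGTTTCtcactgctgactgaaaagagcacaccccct
Ifit3 (chr19:34583343-34583446, plus strand): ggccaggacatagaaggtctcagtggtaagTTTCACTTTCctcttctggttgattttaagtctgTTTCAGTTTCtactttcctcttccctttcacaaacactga
Isg15 (chr4:156200845-156200926, minus strand): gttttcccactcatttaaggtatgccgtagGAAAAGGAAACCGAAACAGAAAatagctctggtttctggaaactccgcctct
Oas1a (chr5:120907500-120907575, minus strand): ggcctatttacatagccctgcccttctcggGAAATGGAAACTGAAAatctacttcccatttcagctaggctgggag
Rsad2 (chr12:26456533-26456602, minus strand): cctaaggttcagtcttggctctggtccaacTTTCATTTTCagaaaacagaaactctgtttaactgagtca

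Such a match stood in 6 of the 10 called genes that have a promoter entry, in 11 of 19 on the whole list (57.9%), and in 3.88% of the 9517 tested genes that have an entry. A match is a description of these letters and not a measured binding site.

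Isg15, the ubiquitin-like antiviral modifier, stood at 7.51, 8.0 and 7.63 in IgAkMup NASH and 6.44, 6.47 and 6.11 in IgAkMup NC and rose by 1.37 ± 0.21 (adjusted p = 7.4e-05); all NASH libraries were above all NC libraries. Ifit1, which binds uncapped viral RNA, stood at 7.45, 8.03 and 8.11 in IgAkMup NASH and 6.45, 7.09 and 6.54 in IgAkMup NC and rose by 1.17 ± 0.31 (adjusted p = 0.00762; 0.0501 with the tumour groups added). Cmpk2, a mitochondrial nucleotide kinase, rose by 1.30 ± 0.23 (adjusted p = 0.00036) and Oas1a, a sensor of double-stranded RNA, by 1.05 ± 0.23 (adjusted p = 0.00184). Ifi44 stood at 6.25, 7.32 and 7.29 in IgAkMup NASH and 5.92, 5.80 and 5.57 in IgAkMup NC, where IgAkMup NASH 2 was lowest in its group, and rose by 1.19 ± 0.31 (adjusted p = 0.00669). Rsad2, the antiviral enzyme viperin, rose by 0.94 ± 0.26 (adjusted p = 0.00858; 0.062 without IgAkMup NASH 3), Ifit3 by 0.86 ± 0.23 (adjusted p = 0.00694) and Bst2, which tethers virus to cells, by 0.87 ± 0.15 (adjusted p = 0.000253). Apol9a, an interferon-induced apolipoprotein L gene with a near-identical copy, stood at 9.87, 10.13 and 9.79 in IgAkMup NASH and 9.59, 9.39 and 9.11 in IgAkMup NC and did not pass, at 0.57 ± 0.24 (adjusted p = 0.0796).

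Against B6 HFD control livers, which are also on HFD and share the SS N tag, 251 genes were higher (2.05%) and 188 lower (1.53%) in IgAkMup NASH; this comparison shares the NASH libraries with the one above. Without IgAkMup NASH 3 the counts were 96 and 52, and 117 were lower without B6 HFD control 1. In it 14 of the 27 type I genes were higher and none lower (median 0.69). Isg15 was higher by 1.02 ± 0.21, Ifi44 by 1.5 ± 0.31, Oas1a by 1.03 ± 0.23 and Apol9a by 1.97 ± 0.24, all called, while the 1.06 ± 0.33 of Ifit1 did not pass (adjusted p = 0.0628). Isg15 stood at 6.45, 6.70 and 6.94 in B6 HFD control and 6.01, 6.28 and 6.27 in B6 NC and at 7.82, 7.96 and 7.90 in MupHe NASH and 7.29, 6.57 and 6.52 in MupHe NC. Between the B6 groups 6 of the 27 were higher and 3 lower (median 0.28), and between the MupHe groups 15 were higher (median 0.70). In the direct test of the IgAkMup difference against the B6 difference, given below, none of the 27 passed in either direction (median 0.36). The comparison with B6 HFD control also holds any difference between the NC groups.

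Genes of the interferon gamma response and antigen presentation by MHC class I followed: 13 of 24 rose and 1 fell (median 0.40). Igtp, an immunity-related GTPase, stood at 9.60, 9.56 and 9.53 in IgAkMup NASH and 8.34, 8.34 and 8.89 in IgAkMup NC and rose by 1.04 ± 0.25 (adjusted p = 0.00438). Psmb8, a subunit of the immunoproteasome, rose by 1.03 ± 0.19 (adjusted p = 0.00052) and Irgm1 by 0.84 ± 0.18 (adjusted p = 0.00146). None of the 8 tested MHC class II genes passed in either direction in limma (4924 of 12254 genes had an unadjusted p under 0.05); 2 were higher when only the groups compared were fitted, and none with weights per library.

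**Figure D3:**
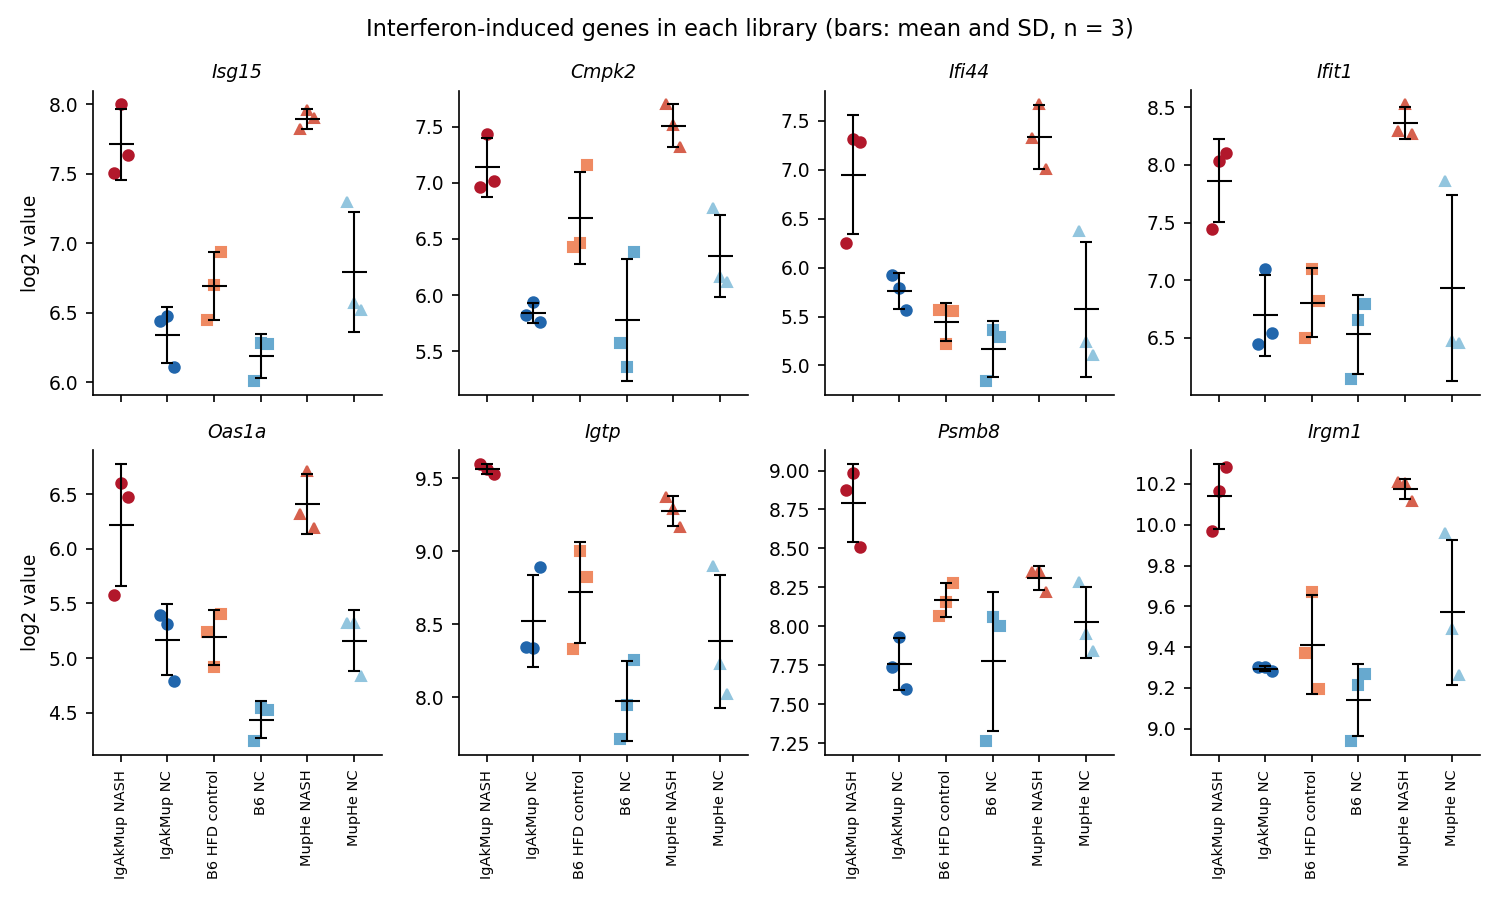
The log2 value of 8 interferon-induced genes is plotted for each library of the 6 groups, with the mean and SD of each group of 3; every panel has its own scale. In each panel the IgAkMup NASH libraries are above the IgAkMup NC libraries. The 8 genes were taken from the largest called differences of their lists. How many of all tested genes lack overlap was not counted, so this describes the panels only. Isg15 reaches 7.51 to 8.0 in IgAkMup NASH.

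Respiratory chain genes rose together by small amounts. Of 24 genes 20 rose and none fell (median 0.42), 16 to 22 rose without any 1 library, and 10 with the tumour groups added to the fit. In B6, 21 of them were called higher, against 3 higher and 1 lower in MupHe. Cox5a, a subunit of cytochrome oxidase, stood at 10.87, 10.68 and 10.45 in IgAkMup NASH and 9.99, 9.94 and 9.96 in IgAkMup NC and rose by 0.70 ± 0.10 (adjusted p = 4.81e-05). Uqcrfs1, the Rieske iron-sulfur protein, rose by 0.62 ± 0.08 (adjusted p = 1.28e-05), and its groups did not overlap. Sdhb, a subunit of succinate dehydrogenase, did not pass, at 0.18 ± 0.09 (adjusted p = 0.145; 0.0287 without IgAkMup NASH 6).

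Among stress responses, 7 of 22 genes of the unfolded protein response and its chaperones rose (31.8%) and none fell (median 0.28). Of all tested genes 14.7% rose. Without 1 library 4 to 6 of the list rose, with 4 without IgAkMup NASH 2 or IgAkMup NC 2. After quantile normalization 4 rose, and none with the tumour groups added to the fit. Hspa5, the main chaperone of the endoplasmic reticulum, stood at 13.47, 13.35 and 13.61 in IgAkMup NASH and 12.90, 12.82 and 13.03 in IgAkMup NC and rose by 0.56 ± 0.16 (adjusted p = 0.012), and Pdia6, a disulfide isomerase, by 0.52 ± 0.10 (adjusted p = 0.000538). Hspa5 (0.165) and Pdia6 (0.163) missed the threshold with the tumour groups added to the fit. Of 17 p53 targets 5 rose (29.4%), Cdkn1a with the largest difference, and 2 fell (11.8%), beside 14.7% and 14.9% of all tested genes. No p53 target fell without IgAkMup NASH 3, IgAkMup NASH 6, IgAkMup NC 2 or IgAkMup NC 4, and 1 fell without IgAkMup NC 1. Their number was 2 higher and none lower with the tumour groups added. Eda2r, which encodes a receptor, stood at 5.18, 5.27 and 5.20 in IgAkMup NASH and 4.22, 4.47 and 4.07 in IgAkMup NC and rose by 0.96 ± 0.20 (adjusted p = 0.00106), and Zmat3, an RNA-binding p53 target, rose by 0.53 ± 0.12 (adjusted p = 0.00313). Both were called higher in B6 and MupHe too. Eda2r (0.092) missed the threshold with the tumour groups added to the fit. In the integrated stress response 2 of 17 genes rose, a share (11.8%) below the 14.7% of all tested genes. The number was 4 without IgAkMup NASH 2 and 1 without IgAkMup NASH 3 or IgAkMup NC 4. It was 1 with the tumour groups added and 5 with weights per library. Vldlr, a lipoprotein receptor induced in fatty liver, rose by 1.41 ± 0.21 (adjusted p = 5.86e-05; 0.0601 with the tumour groups added); the other, Fgf21, is given above. Of 24 oxidative stress genes of the factor NRF2 3 rose, a share (12.5%) below the 14.7% of all tested genes. Without IgAkMup NASH 3 or with the tumour groups added 1 rose, and with only the groups compared 7 rose and 4 fell.

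Of 30 stellate cell and matrix genes 5 rose and 1 fell (median 0.16), a share of higher genes (16.7%) near the 14.7% of all tested genes, with 2 rises without IgAkMup NC 4 and 3 without IgAkMup NASH 2 or IgAkMup NASH 6; none rose with the tumour groups added to the fit. Col3a1, a collagen of early scars, stood at 8.48, 9.08 and 8.93 in IgAkMup NASH and 7.96, 8.24 and 7.70 in IgAkMup NC and rose by 0.86 ± 0.20 (adjusted p = 0.00268). Col1a2, a chain of collagen I, rose by 0.86 ± 0.19 (adjusted p = 0.00168), while Col1a1, the major chain, stood at 6.41, 6.82 and 6.88 in IgAkMup NASH and 6.11, 6.34 and 5.77 in IgAkMup NC and did not pass (adjusted p = 0.0799). Col3a1 (0.201) and Col1a2 (0.148) missed the threshold with the tumour groups added to the fit. Lrat, the retinol-storing enzyme of quiescent stellate cells, differed by -0.48 ± 0.25 (adjusted p = 0.163), and the groups overlapped. The summed level of 4 stellate cell markers (Lrat, Reln, Des and Pdgfrb) was 9.31 to 9.79 in IgAkMup NASH and 9.88 to 10.03 in IgAkMup NC livers, so it was lower where the collagens were higher. Fewer cells of a type and less RNA per cell cannot be told apart in these bulk samples.

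Of 18 sinusoidal endothelial genes 6 fell (33.3%, beside 14.9% of all tested genes) and none rose (median -0.23). When any 1 library was left out 6 or 7 fell, and 3 with the tumour groups added to the fit. Stab2, a scavenger receptor of these cells, stood at 8.18, 8.18 and 8.33 in IgAkMup NASH and 9.05, 9.01 and 9.09 in IgAkMup NC and differed by -0.82 ± 0.15 (adjusted p = 0.000416; 0.162 with the tumour groups added). The NC libraries lay close together, above all NASH libraries. Stab1, its relative, differed by -0.65 ± 0.14 (adjusted p = 0.00176), Kdr, the receptor of VEGF, by -0.50 ± 0.11 (adjusted p = 0.00242) and Cdh5, the endothelial cadherin, by -0.53 ± 0.13 (adjusted p = 0.00453). In B6, 6 of the 18 were lower and 2 higher, and in MupHe 2 were lower. The summed level of 3 markers (Stab2, Clec4g and Lyve1) was 9.77 to 10.05 in IgAkMup NASH and 10.17 to 10.18 in IgAkMup NC livers.

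Immune cell markers gave few calls. Of 17 Kupffer cell genes 1 rose (5.88%) and 2 fell (11.8%). Of 20 genes of recruited and lipid-associated macrophages 2 rose and 2 fell (10% each). Of all tested genes 14.7% rose and 14.9% fell. Between the B6 groups 12 genes were higher and 1 lower in each list, beside 19.7% and 19.5% of all tested genes. In MupHe 3 Kupffer cell genes were higher and 1 lower, and of the macrophage genes none was higher and 1 lower. The direct test against the B6 difference, given below, called no gene of either list. Between the IgAkMup groups, 1 Kupffer cell gene fell without IgAkMup NC 4, and none rose without any 1 library. Of the macrophage genes none fell without IgAkMup NASH 2 or IgAkMup NC 2, and 1 fell without IgAkMup NASH 6 or IgAkMup NC 1. No macrophage gene and 1 lower Kupffer cell gene passed with the tumour groups added, where 1 Kupffer cell gene was higher; 4 macrophage genes rose with weights per library. Clec4f, which marks resident Kupffer cells, stood at 10.28, 10.20 and 10.03 in IgAkMup NASH and 9.90, 9.95 and 9.96 in IgAkMup NC and did not pass, at 0.23 ± 0.16 (adjusted p = 0.283). Cd163, a haemoglobin scavenger receptor of macrophages, stood at 6.75, 6.27 and 6.08 in IgAkMup NASH and 7.51, 7.13 and 7.97 in IgAkMup NC and fell, with a difference of -1.17 ± 0.32 (adjusted p = 0.00893; 0.0542 without IgAkMup NC 4). Gpnmb, a marker of lipid-associated macrophages, differed by -0.91 ± 0.38 (adjusted p = 0.0755), with IgAkMup NC 1 the highest of its group at 7.89. Spp1, osteopontin, which injured ducts and macrophages make, stood at 10.37, 10.61 and 10.76 in IgAkMup NASH and 9.96, 9.79 and 9.77 in IgAkMup NC and rose by 0.74 ± 0.14 (adjusted p = 0.000693; 0.483 with the tumour groups added).

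None of 9 tested T and NK cell genes and none of 9 tested B and plasma cell genes passed in limma. The rest of these lists, 16 of 25 and 13 of 22 genes, had a mean under 3 or no row; with no filter, 1 of 22 T and NK cell genes was higher and none of 15 B and plasma cell genes passed. The summed level of the T cell markers Cd3d, Cd3e, Cd3g and Lck was 5.30 to 5.41 in IgAkMup NASH and 5.02 to 5.20 in IgAkMup NC livers. Cd3d and Cd3e are among the genes with a mean under 3. The groups overlapped for Cd3d (2.64 in IgAkMup NASH 6 and 2.70 in IgAkMup NC 2) and for Cd3g, given next. With only the groups compared, 1 B and plasma cell gene was higher. Cd3g, a chain of the T cell receptor complex, stood at 3.37, 3.55 and 3.67 in IgAkMup NASH and 3.34, 2.87 and 3.41 in IgAkMup NC (adjusted p = 0.115; 0.0434 with weights per library, the 1 gene of its list called there). Cd8a, a chain of the CD8 coreceptor, stood at 3.75, 3.70 and 3.97 in IgAkMup NASH and 3.68, 3.60 and 3.70 in IgAkMup NC (exact p = 0.2), and the groups overlapped. Jchain, the joining chain of IgA and IgM, stood at 7.10, 6.51 and 5.81 in IgAkMup NASH and 7.40, 6.52 and 6.52 in IgAkMup NC (adjusted p = 0.454). The hepatocyte markers Alb, Apoa1, Ttr, Hnf4a, Cebpa and Fgb summed to 19.58 to 19.93 in IgAkMup NASH and 19.66 to 19.96 in IgAkMup NC livers, high in both groups. The pancreas markers Cela2a, Pnlip and Cpa1 summed to 1.77 to 1.94 in NASH and 1.85 to 2.07 in NC livers.

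Of 16 duct and progenitor genes 4 rose (25%, beside 14.7% of all tested genes), and 2 with the tumour groups added to the fit. Anxa2, an annexin that rises in injured hepatocytes and ducts, stood at 9.19, 9.81 and 9.73 in IgAkMup NASH and 8.14, 8.38 and 8.03 in IgAkMup NC and rose by 1.39 ± 0.25 (adjusted p = 0.000375), and Tm4sf4, a tetraspanin-like protein, rose by 1.05 ± 0.14 (adjusted p = 1.75e-05). The defining duct markers Krt7, Krt19 and Epcam summed to 6.38 to 6.49 in IgAkMup NASH and 6.57 to 6.73 in IgAkMup NC livers, and so were lower. Of 23 cell division genes 4 rose, a share (17.4%) near the 14.7% of all tested genes. The number was 2 without IgAkMup NASH 6, 1 with the tumour groups added, 2 at a filter of 5, 8 with only the groups compared and 9 with weights per library. Cdk1, the mitotic kinase, stood at 5.60, 5.71 and 5.38 in IgAkMup NASH and 4.92, 4.59 and 4.71 in IgAkMup NC and rose by 0.82 ± 0.17 (adjusted p = 0.00145), and Mcm6, a subunit of the replicative helicase, by 0.87 ± 0.23 (adjusted p = 0.00773; 0.104 with the tumour groups added).

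Of 18 circadian clock genes 4 fell (22.2%, beside 14.9% of all tested genes) and none rose (median -0.47). Without IgAkMup NASH 3, 1 fell, and 2 fell without IgAkMup NC 1 or IgAkMup NC 2. With only the groups compared 10 fell and 3 rose, and with weights per library 8 fell and 2 rose. Per2, a repressor of the clock, stood at 6.69, 6.28 and 6.79 in IgAkMup NASH and 7.58, 7.85 and 8.25 in IgAkMup NC and differed by -1.31 ± 0.32 (adjusted p = 0.00465). Dbp, an output factor of the clock, stood at 8.96, 7.27 and 8.23 in IgAkMup NASH and 9.42, 9.65 and 9.25 in IgAkMup NC, and Arntl, which peaks opposite to it, at 6.05, 6.78 and 6.66 in IgAkMup NASH and 5.60, 5.55 and 5.18 in IgAkMup NC; neither passed (adjusted p = 0.307 and 0.15). No label gives the time of day of collection, and its part in these values was not tested.

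Long non-coding RNAs and ribosomal RNA gave some of the largest differences. Of 9 tested RNAs on the list named nuclear retained RNAs 7 fell and none rose (median -1.77), and 6 to 8 fell when 1 library was left out. The list also holds Gas5 and Snhg1, which did not pass, and where its members lie in the cell was not measured. Snhg11, a long RNA that hosts small nucleolar RNAs, stood at 4.66, 4.46 and 4.81 in IgAkMup NASH and 7.92, 8.10 and 7.49 in IgAkMup NC, a difference of -3.20 ± 0.23 (adjusted p = 3.35e-08). Meg3, an imprinted long RNA, stood at 3.47, 3.09 and 3.56 in IgAkMup NASH and 6.75, 6.52 and 6.71 in IgAkMup NC and differed by -3.29 ± 0.36 (adjusted p = 1.8e-06), and Rian, from the same imprinted cluster, by -1.90 ± 0.28 (adjusted p = 5.08e-05; 0.12 with the tumour groups added). Malat1, an abundant RNA of nuclear speckles, stood at 9.31, 8.27 and 9.38 in IgAkMup NASH and 11.06, 10.60 and 10.60 in IgAkMup NC and differed by -1.77 ± 0.30 (adjusted p = 0.00023). Firre, which holds chromatin in the nucleus, differed by -2.28 ± 0.24 (adjusted p = 1.55e-06) and Neat1, the scaffold of paraspeckles, by -2.08 ± 0.35 (adjusted p = 0.000159).

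The other genotypes divided these RNAs. Meg3 and Rian were called lower in B6 HFD control and in MupHe NASH livers. Malat1, Firre and Neat1 were called lower in B6 HFD control, by -2.24 ± 0.30, -2.05 ± 0.24 and -2.76 ± 0.35, and had differences of 0.33 ± 0.30, -0.09 ± 0.24 and -0.01 ± 0.35 in MupHe that did not pass. Malat1 stood at 7.99, 9.66 and 8.99 in B6 HFD control and 11.41, 11.09 and 10.86 in B6 NC and at 11.35, 10.94 and 11.09 in MupHe NASH and 10.99, 10.77 and 10.64 in MupHe NC. The low libraries are those whose column names carry SS N, and the tag cannot be told apart from the groups that carry it.

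Rn45s, the precursor of ribosomal RNA, stood at 18.15, 16.93 and 16.73 in IgAkMup NASH and 14.80, 14.74 and 14.36 in IgAkMup NC and rose by 2.64 ± 0.35 (adjusted p = 1.5e-05). Unlike messenger RNA it is not polyadenylated. Lars2, the mitochondrial leucyl-tRNA synthetase, rose by 2.97 ± 0.31 (adjusted p = 1.26e-06) and Mir6236, a small RNA locus, by 2.09 ± 0.31 (adjusted p = 5.22e-05). IgAkMup NASH 2 had the highest value of all 3 in its group, with 13.77 for Lars2 and 12.75 for Mir6236. Rn45s stood at 17.27, 17.66 and 16.94 in B6 HFD control and 15.04, 15.18 and 14.33 in B6 NC and at 16.40, 15.00 and 15.83 in MupHe NASH and 14.34, 14.61 and 14.60 in MupHe NC. The part of library preparation in these values was not tested, nor was it tested whether ribosomal reads fall on Lars2 and Mir6236.

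**Figure D4:**
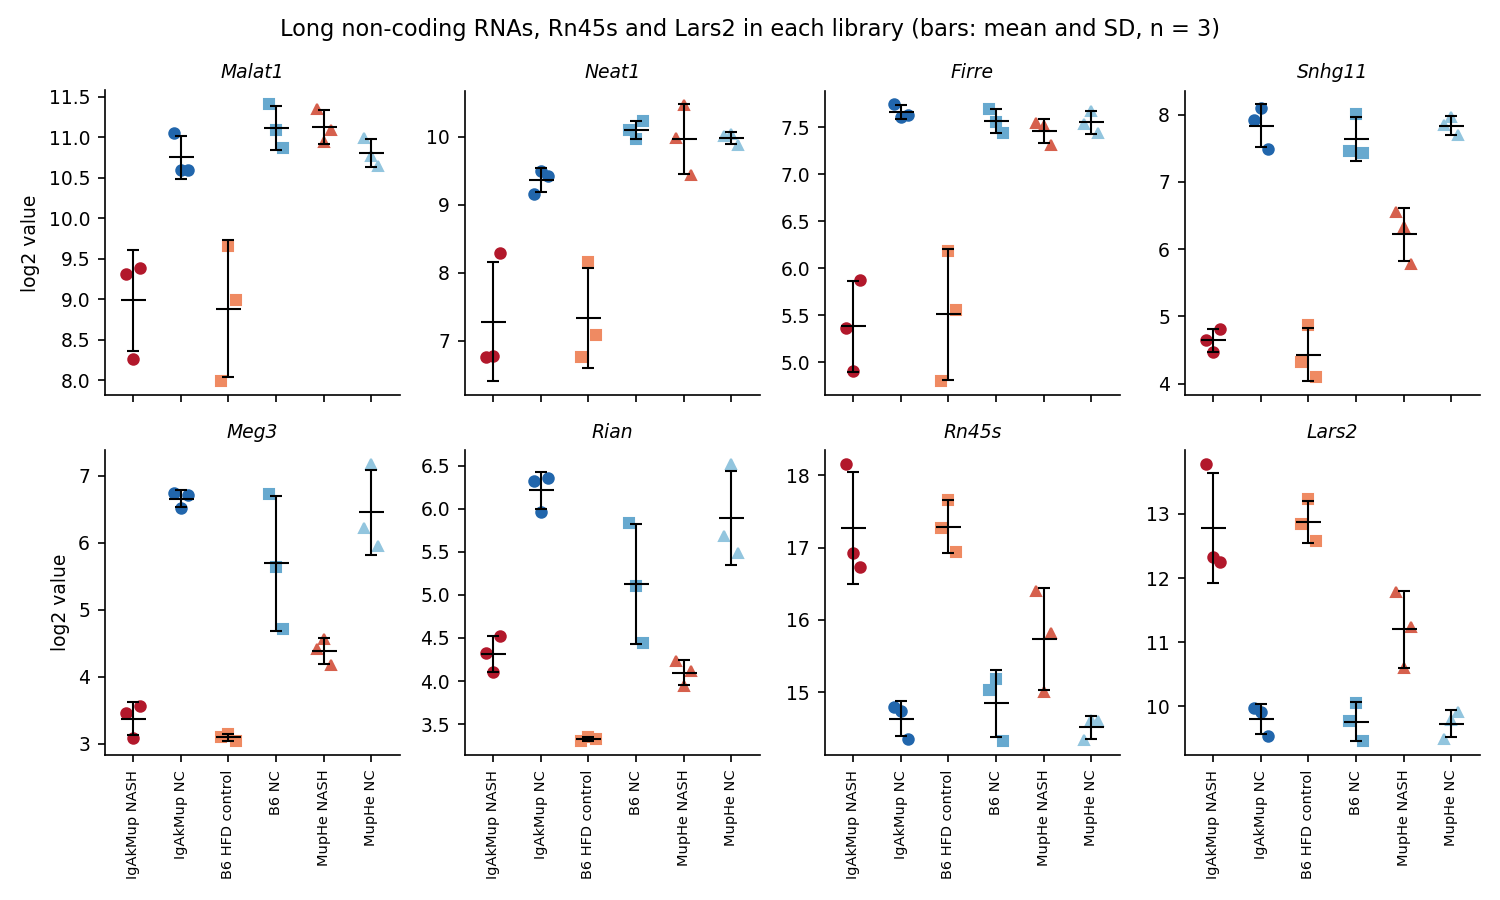
The log2 value of 6 long non-coding RNAs, Rn45s and Lars2 is plotted for each library of the 6 groups, with the mean and SD of each group of 3; every panel has its own scale. Malat1, Neat1 and Firre are lower in IgAkMup NASH and B6 HFD control than in the other 4 groups, whereas Meg3 and Rian are also low in MupHe NASH; Rn45s and Lars2 are highest in IgAkMup NASH and B6 HFD control.

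Whether the IgAkMup difference departed from that of other genotypes was tested as a difference of differences. Against B6, no gene passed in either direction (0% higher and 0% lower in limma), with 1370 genes at an unadjusted p under 0.05 and a lowest adjusted p of 0.0688. With weights per library (arrayWeights) the count was also 0, after quantile normalization 4 were higher and 4 lower, and without B6 HFD control 2 the counts were 28 and 45. Against MupHe, which shares the NASH stage but not the tag, 128 genes (1.04%) had a higher and 285 (2.33%) a lower difference in IgAkMup. Of the 285, 269 were also called lower between the IgAkMup groups and 228 (80.0%) between the B6 groups, whose tags are those of IgAkMup. Of the 128, 79 were called higher between the IgAkMup groups and 54 (42.2%) between the B6 groups. These counts rest on few libraries: without IgAkMup NASH 2 they were 6 and 108, without MupHe NASH 2 they were 6 and 111, and without IgAkMup NASH 6 they were 501 and 528. Counts outside a range of 1.5 times were also found for the higher genes without IgAkMup NASH 3 (28), IgAkMup NC 1 (28), IgAkMup NC 2 (40), IgAkMup NC 4 (52), MupHe NASH 1 (65), MupHe NC 2 (49) or MupHe NC 3 (14), and for the lower genes without IgAkMup NASH 3 (142), IgAkMup NC 1 (138) or MupHe NC 3 (130).

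Gsn, gelsolin, which severs actin filaments, had one of the largest departures upwards. It stood at 10.34, 10.03 and 9.67 in IgAkMup NASH and 8.64, 8.34 and 8.05 in IgAkMup NC, a rise of 1.67 ± 0.27 (adjusted p = 0.000112), and at 9.31, 8.78 and 8.64 in MupHe NASH and 8.56, 8.98 and 8.41 in MupHe NC, so the IgAkMup difference exceeded that of MupHe by 1.42 ± 0.38 (adjusted p = 0.044). The B6 difference of Gsn, 0.45 ± 0.27, did not pass either, and against B6 HFD control Gsn was higher by a called 1.44 ± 0.27. Nr0b2 went with a difference of -0.62 ± 0.26 in MupHe that did not pass, and its IgAkMup difference exceeded that by 1.36 ± 0.37 (adjusted p = 0.0461). Plat, the tissue plasminogen activator, stood at 5.06, 5.09 and 5.09 in IgAkMup NASH and 3.95, 3.96 and 4.11 in IgAkMup NC and rose by 1.07 ± 0.16 (adjusted p = 5.45e-05), with 0.11 ± 0.16 in MupHe and a called 1.12 ± 0.16 in B6. Mup16 had a called difference of -4.29 ± 0.56 in MupHe and one of -1.17 ± 0.56 in IgAkMup that did not pass (adjusted p = 0.119). Capn8, a stomach-type calpain, and Gstp1, a glutathione transferase with a near-identical copy, were called lower in MupHe and did not pass in IgAkMup, at -0.56 ± 0.24 and 0.11 ± 0.24 (Capn8 passed at 0.0255 without IgAkMup NASH 3).

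Downwards, Zfp970, a zinc finger gene with similar copies, stood at 6.81, 6.54 and 6.91 in IgAkMup NASH and 9.12, 9.07 and 9.08 in IgAkMup NC and differed by -2.34 ± 0.32 (adjusted p = 2.25e-05), against -0.10 ± 0.32 in MupHe and a called -1.99 ± 0.32 in B6. Plin4, Malat1, Firre and Cyp4a14 completed the 5 largest departures downwards. When each of the 12 libraries of this test was left out in turn, these 5 genes kept an adjusted p under 0.05 each time, while Gsn kept it in 2 of 12, Nr0b2 in 3, Capn8 in 3, Gstp1 in 1, Mup16 in 4 and Plat in 5. Their highest adjusted p were 0.142 for Gsn, 0.145 for Nr0b2, 0.157 for Gstp1 and 0.0652 for Plat without IgAkMup NASH 2, and 0.124 for Capn8 and 0.109 for Mup16 without MupHe NASH 2. With the tumour groups in the fit, Cyp4a14 (0.179) and Plin4 (0.0879) missed the threshold, as did every departure upwards named here (0.0581 for Mup16 to 0.576 for Gsn), while Zfp970 (0.0203), Firre (0.0139) and Malat1 (0.0464) passed.

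**Figure D5:**
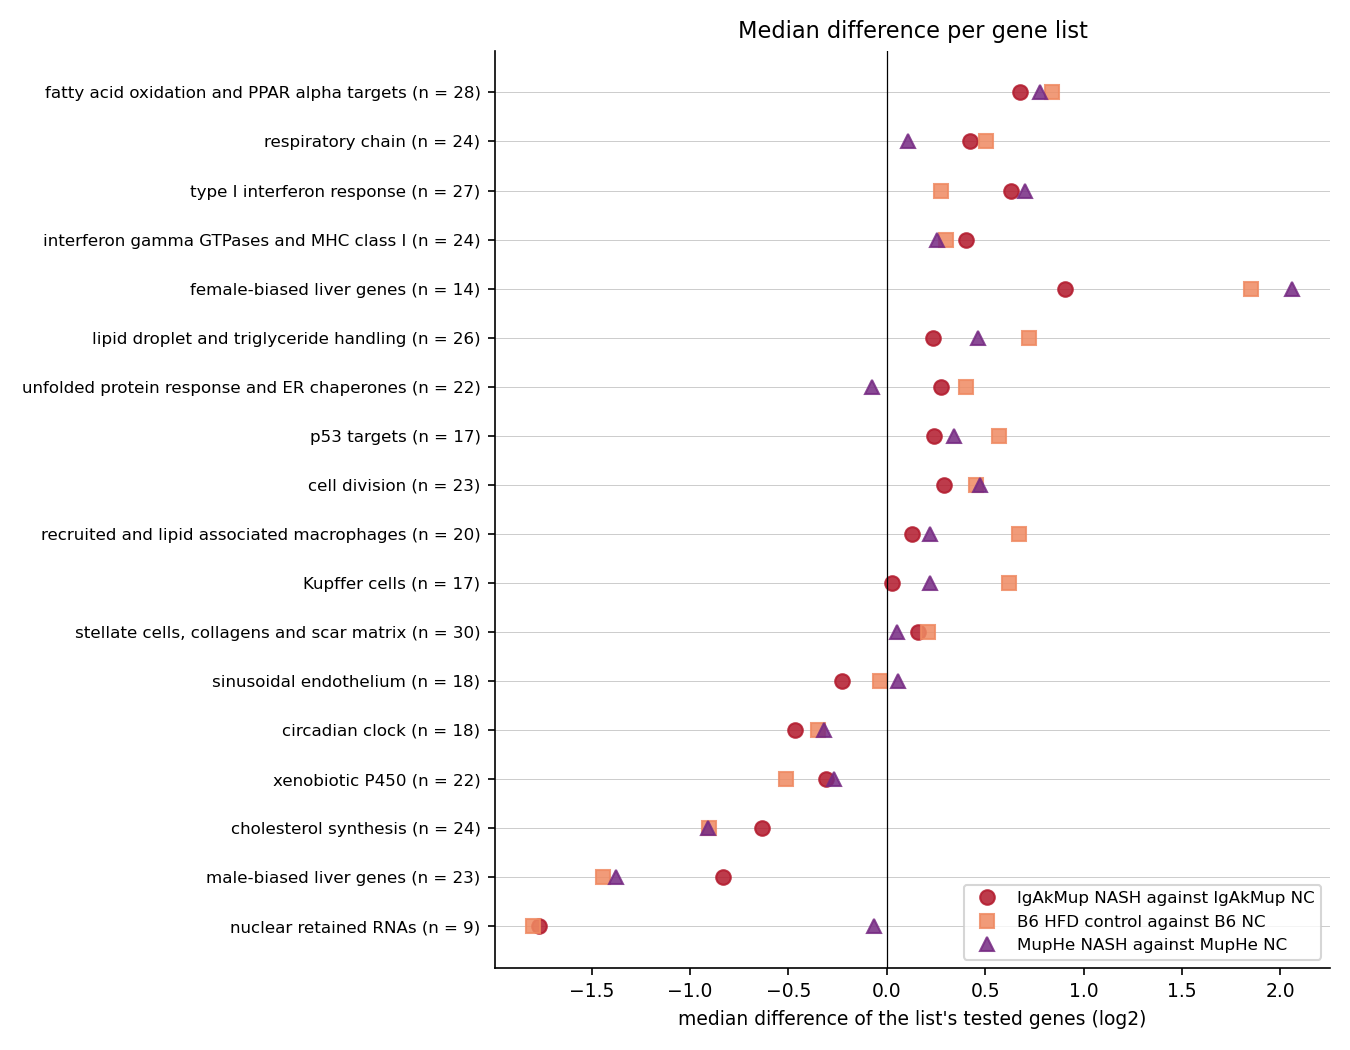
The median difference of the tested genes of 18 lists (log2) is plotted for IgAkMup NASH against IgAkMup NC (circles), B6 HFD control against B6 NC (squares) and MupHe NASH against MupHe NC (triangles), with the number of tested genes beside each list. The 28 fatty acid oxidation genes have similar medians in all 3 comparisons (0.68, 0.84 and 0.78). The 9 RNAs of the list named nuclear retained RNAs are at -1.77 and -1.80 in IgAkMup and B6 and at -0.07 in MupHe.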

How the data were processed

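RNA of whole livers was sequenced; per the labels' protocols, libraries were made from 100 ng of RNA with a stranded poly(A) kit, and some livers were extracted with another reagent first. The build was mm10, per the submitters' processing notes, which name STAR for every sample, with Cuffdiff on HFD and with HOMER plus DESeq2 on NC libraries, and give neither versions nor roles. The authors deposited a table of regularized log2 values for 24511 genes, from which counts and depth cannot be had. Of its 41 columns, 6 matched more than 1 group and were not used. The 3 columns of IgAkMup NASH match the group but no single sample, and nothing says that replicates came from separate animals, so p-values measure only the spread between these samples, which may be technical.

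The 12254 genes with a mean of at least 3 were fitted with limma 3.58.1 in R 4.3.3, as group means over the 24 libraries of 8 non-tumour groups (16 residual degrees of freedom) with a mean-dependent prior variance. Each comparison, and each difference of 2 comparisons, was adjusted by Benjamini-Hochberg over all 12254 genes, and called under 0.05. Differences carry their standard error. The fit was tested on simulated data. Alternatives changed the libraries in the fit, the filter, the scaling and the weights, and left out each library.

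Named genes were the 12 largest rises and 12 largest falls among called genes (groups that do not overlap, mean of at least 5). Added were the 5 largest called departures each way from the MupHe difference, as none was called against B6. From a list came up to 5 called and 3 uncalled genes. Some of these are not reported here. Genes with predicted names are counted only. Members and the 43 lists were chosen with earlier results of these data known. Markers were summed on the linear scale. Promoters are from RefSeq.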

Additional observations from a re-analysis of the deposited data

Results flagged for a closer look

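These genes had an IgAkMup difference (NASH minus NC) that departed from the MupHe difference (NASH minus NC) in a direct test of the difference in limma. Values are log2 differences of the differences, positive where the IgAkMup one was higher. MupHe NASH libraries carry the Tri N tag and IgAkMup NASH libraries the SS N tag, and tag and genotype cannot be told apart. Groups of 3 were too small for a test of single libraries that stand apart.

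Among lipid genes, the departure was -3.32 ± 0.67 for Cyp4a14 (adjusted p = 0.00964) and -2.96 ± 0.58 for Plin4 (adjusted p = 0.00845). Among long non-coding RNAs it was -2.18 ± 0.34 for Firre (adjusted p = 0.00244) and -2.09 ± 0.43 for Malat1 (adjusted p = 0.0114). It was -2.07 ± 0.49 for Neat1 (adjusted p = 0.0252) and -1.58 ± 0.32 for Snhg11 (adjusted p = 0.00997). Zfp970 departed by -2.24 ± 0.45 (adjusted p = 0.01). Cyp4a14, Plin4, Firre, Malat1, Snhg11 and Zfp970 passed in all 12 fits that left out 1 library; Neat1 passed in 6. With the tumour groups added to the fit, Cyp4a14 (0.179), Plin4 (0.0879), Neat1 (0.103) and Snhg11 (0.567) missed the threshold, and Zfp970, Firre and Malat1 passed.

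C4a departed by -1.36 ± 0.36 (adjusted p = 0.0432), Mlxipl by -0.91 ± 0.23 (adjusted p = 0.0313), Stab1 by -0.90 ± 0.20 (adjusted p = 0.0179) and Stab2 by -0.87 ± 0.21 (adjusted p = 0.0289). When each of 12 libraries was left out, C4a passed in 2 fits, Mlxipl in 5, Stab1 in 9 and Stab2 in 4; none of them passed with the tumour groups added (0.16 for Stab1 to 0.625 for Stab2).

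Upwards, Mup16 departed by 3.11 ± 0.79 (adjusted p = 0.0331), Gsn by 1.42 ± 0.38 (adjusted p = 0.044), Nr0b2 by 1.36 ± 0.37 (adjusted p = 0.0461) and Capn8 by 1.27 ± 0.34 (adjusted p = 0.0455). Gstp1 departed by 1.22 ± 0.34 (adjusted p = 0.0469), Plat by 0.96 ± 0.23 (adjusted p = 0.0252), Spp1 by 0.73 ± 0.20 (adjusted p = 0.0499) and Cox5a by 0.59 ± 0.15 (adjusted p = 0.0298). Spp1 passed in 0 of 12 fits with 1 library left out (highest adjusted p 0.111), and Cox5a in 5. None of these 8 genes passed with the tumour groups added (0.0581 for Mup16 to 0.852 for Spp1).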

How the results depend on the processing

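No paired analysis was possible because the numbers in the IgAkMup NASH columns are not tied to samples by the labels, and the 2 groups share only 1 column number. Of 101 named genes, 80 were called; 50 kept the call under every alternative, 30 lost it under at least 1, and none reversed. Adding the tumour groups to the fit ended the most calls of named genes (24, among them Cyp2b9, at an adjusted p of 0.0517, and Ifit1, at 0.0501). Fitting only the groups compared added 11, among them Sqle, Hsd3b5, Dbp and Arntl; weights per library added 10, among them Plau (0.0181). Without a filter, Cyp7a1, Mup2 and Nr0b2 missed the threshold between the IgAkMup groups. In the difference from MupHe, more genes missed it without a filter. Downwards these were Neat1 (0.0531), Stab2 (0.0531), Mlxipl (0.0601) and C4a (0.0778). Upwards they were Mup16 (0.0707), Capn8 (0.0811), Gsn (0.0822), Spp1 (0.0839), Nr0b2 (0.0858) and Gstp1 (0.0885). Median centring and quantile normalization changed no call of a named gene between IgAkMup NASH and IgAkMup NC. In the difference from MupHe, quantile normalization ended the calls of Gsn (0.0588), Gstp1 (0.0746) and Spp1 (0.101).

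With the tumour groups in the fit, 682 genes were higher and 912 lower in IgAkMup NASH than in IgAkMup NC, 26 and 5 in IgAkMup NASH than in B6 HFD control, 1183 and 1355 between the B6 groups, 117 and 121 between the MupHe groups, and 1 and 57 in the difference from MupHe. For that difference, fitting only the groups compared gave 212 higher genes, and weights per library 790 higher and 881 lower. Quantile normalization gave 4 higher and 4 lower in the difference from B6. The cause of these shifts was not tested.

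Leaving out 1 library gave 1199 to 1801 higher and 1309 to 1790 lower genes for IgAkMup NASH against NC. The ranges were 96 to 245 and 52 to 250 against B6 HFD control, 1930 to 2385 and 1907 to 2337 for B6, 409 to 537 and 415 to 537 for MupHe, 0 to 28 and 0 to 45 for the difference from B6, and 6 to 501 and 108 to 528 for that from MupHe. Where a group was left with 2 libraries, the spread was pooled over all groups. Low genes, such as those of lymphocytes, are limited by the shrinkage of the scale.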
